A study of Mus musculus with 10 samples.

Results

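The genes described here are 8 neighbours of Adipoq on mouse chromosome 16, from Ahsg to St6gal1: Ahsg, Fetub, Hrg, Kng2, Kng1, Eif4a2, Rfc4 and St6gal1. They were taken by name from a table of 52636 gene identifiers, because Adipoq supplies the promoter of many fat-directed Cre lines. They were selected on their knockout against control values in this table (read counts and log2 fold changes), so that contrast describes them and is no test of them. All 8 had reads in at least 1 library. After the filter on low counts 15927 genes could be tested, and 4 of the 8 were among them: Kng2, Eif4a2, Rfc4 and St6gal1.

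RNA was taken from inguinal white fat, which lies under the skin of the groin, of C57BL/6 mice aged 6 months on a 65% high-fat diet. The 5 control libraries are labelled Wild type, and the growth protocol gives them as TCF7L2F/F, that is, with loxP-flanked Tcf7l2 alleles. The 5 knockout libraries are labelled Adipose Tcf7l2 KO and came from TCF7L2F/F; Adp-Cre mice, so the same alleles with a Cre recombinase in addition. The diet is given as 16 weeks in the diet label, 12 weeks in the sample descriptions and 4 months in the treatment protocol. The sources used here do not spell out the promoter behind the name Adp-Cre, nor which Cre line this is, how it was made or where it sits in the genome. Every knockout library carries the Cre and no control library does, so effects of the Cre transgene and of the loss of Tcf7l2 cannot be told apart.

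Adiponectin, the product of Adipoq, is a hormone made almost entirely by fat cells, which is why its promoter is used to direct Cre to them. Some drivers of this kind were built from a bacterial artificial chromosome, a long piece of the locus that can carry neighbouring genes whole. The neighbours are of mixed kinds. Ahsg, Fetub, Hrg, Kng1 and Kng2 encode secreted plasma proteins of the cystatin superfamily that are made mostly by the liver. Eif4a2 encodes an RNA helicase of translation initiation, Rfc4 a subunit of the clamp loader of DNA replication, and St6gal1 an enzyme that adds sialic acid to glycoproteins.

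On GRCm38 chromosome 16 the order runs Ahsg (22891277 to 22899449, plus strand), Fetub (22918334 to 22939778, plus), Hrg (22951072 to 22961656, plus), Kng2 (22985854 to 23029482, minus) and Kng1 (23057865 to 23082078, plus). Eif4a2 (23107444 to 23114136, plus), Rfc4 (23113943 to 23127737, minus), Adipoq (23146536 to 23158028, plus) and St6gal1 (23224740 to 23360350, plus) follow, all protein-coding in GENCODE release M21. The gap between the gene bodies and Adipoq is 18.8 kb for Rfc4, 32.4 kb for Eif4a2, 64.5 kb for Kng1 and 117 kb for Kng2. It is 185 kb for Hrg, 207 kb for Fetub, 247 kb for Ahsg and, on the other side, 66.7 kb for St6gal1. Eif4a2 and Rfc4 converge and their last exons overlap, which covers 12.7% of the exonic bases of Rfc4. The sources used here do not give whether the counting used strand, so reads in that overlap may have been shared or dropped.

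The stretches upstream of 3 genes are shown because the Adipoq promoter drives many fat-directed Cre lines and because Eif4a2 and Rfc4 are the listed genes nearest to it. Each is the 250 bases before the RefSeq start (GRCm38.p6), read 5′ to 3′ on the gene's strand. Capitals mark CCAAT or its reverse complement ATTGG, and GGGCGG or its reverse complement CCGCCC.
Adipoq, chr16:23146286-23146535, plus strand: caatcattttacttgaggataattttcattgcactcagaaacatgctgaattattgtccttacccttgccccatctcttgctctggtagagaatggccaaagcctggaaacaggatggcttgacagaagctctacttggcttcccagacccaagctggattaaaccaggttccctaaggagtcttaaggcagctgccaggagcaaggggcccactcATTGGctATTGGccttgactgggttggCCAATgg
Eif4a2, chr16:23107218-23107467, plus strand: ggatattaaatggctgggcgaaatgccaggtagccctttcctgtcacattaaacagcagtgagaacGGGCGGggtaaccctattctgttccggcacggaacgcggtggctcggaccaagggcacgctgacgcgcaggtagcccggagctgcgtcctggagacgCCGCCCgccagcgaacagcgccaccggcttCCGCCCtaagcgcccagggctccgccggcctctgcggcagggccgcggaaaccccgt
Rfc4, chr16:23127731-23127980, minus strand: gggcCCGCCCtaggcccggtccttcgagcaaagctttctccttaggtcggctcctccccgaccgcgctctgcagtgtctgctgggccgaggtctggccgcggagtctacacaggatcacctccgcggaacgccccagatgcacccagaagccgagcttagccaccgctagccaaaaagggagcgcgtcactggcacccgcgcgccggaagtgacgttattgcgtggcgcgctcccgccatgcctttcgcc

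The Adipoq window held CCAAT or ATTGG 3 times, while the Eif4a2 and Rfc4 windows held GGGCGG or CCGCCC 3 times and 1 time. Of the 32851 windows of this length in the RefSeq table, 33.8% held CCAAT on either strand and 32.7% held GGGCGG. The core letters to which TCF/LEF factors such as Tcf7l2 bind, searched as CTTTGAT and CTTTGAA on both strands, were in 3.21% and 4.46% of all windows. Neither was found in the 11 windows of Adipoq and the 7 listed genes that matched the table, which says only that these letters are not in those windows.

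Kng1 and Kng2 are neighbouring copies of the kininogen gene, and the part that encodes bradykinin, the peptide cut out of both proteins, shows where they are alike and where they differ. The lines give 87 bases of the longest open reading frame in the GENCODE M21 transcripts, with the 27 bases of the bradykinin codons in capitals.
Kng1, bases 1108 to 1194 of the reading frame: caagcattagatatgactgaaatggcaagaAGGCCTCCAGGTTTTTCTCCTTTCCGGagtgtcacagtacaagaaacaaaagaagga
Kng2, bases 1111 to 1197 of the reading frame: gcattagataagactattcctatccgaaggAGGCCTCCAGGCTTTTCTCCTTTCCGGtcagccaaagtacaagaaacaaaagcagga

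The bradykinin codons differed at 1 of 27 bases. Compared position by position with no gaps, the printed stretch as a whole differed at 26 of 87 (70.1% identical). The left flanks are offset between the lines, so bases that match when shifted count here as different. Over the whole reading frames, aligned with gaps allowed, 92.9% of 1932 bases were identical. Of all 50-base stretches in the Kng2 transcripts, 19.4% also occur in Kng1, and 17.2% of those of Kng1 occur in Kng2. Counts of both genes are therefore uncertain where a read fell in a shared stretch. The share found in transcripts of any other gene was 13.6% for Eif4a2, spread over 11 genes, 9.14% for Rfc4, all in the overlap with Eif4a2, and 3.13% for St6gal1. It was 0.632% for Ahsg and 0 for Fetub and Hrg.

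Total counts per library lay between 14032866 and 17782073 and overlapped (exact permutation p = 0.944 over 252 splits). Tcf7l2, the deleted gene, had 9.16 to 11.4 CPM (read counts scaled to the library's total, with TMM factors) in the controls and 5.57 to 6.20 CPM in the knockouts, with every library on its label's side (log2 fold change -0.87, edgeR adjusted p = 6.15e-04, exact permutation p = 0.00794, the smallest this design gives being 0.0079). The tissue's defining markers were present: 15 fat cell markers summed to between 40310 and 49670 CPM in the controls and between 40460 and 51000 CPM in the knockouts. A few abundant genes carry these sums: by edgeR 5 of the 15 were called lower (Cfd, Car3, Retn, Slc2a4 and Plin4, with log2 fold changes from -1.51 to -0.28) and 1 higher (Lep, 0.48). Dropping control 1, 2 or 3 or knockout 2 or 4 left 3 genes called lower. Dropping control 1, 2 or 4 or knockout 2 or 5 left 0 called higher, and DESeq2, or dropping control 5 or knockout 1 or 4, gave 2. Adjusting for a score of intronic-type transcripts, defined with the last results and chosen after seeing the data, left 1 lower and 0 higher. The 10 endothelial markers summed to between 1105 and 1387 CPM in the controls and between 914 and 1052 CPM in the knockouts, and 7 of them were called lower by edgeR (4 without control 1 or knockout 5, and 0 adjusted for the same score). That score and the marker sums given below differed between libraries. Library numbers in the titles run through the controls first, so preparation that followed this order cannot be told apart from genotype. Nothing in the labels states outright that each library is a separate mouse. If some are not, the spread measured here is technical.

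Adipoq itself, the adiponectin gene, had similar means in both groups. It had 2964, 2937, 2966, 2687 and 3388 CPM in the controls, taken in order from 1 to 5, against 2824, 3134, 3248, 2297 and 3379 CPM in the knockouts. The ranges overlapped, and the means were 2989 ± 252 and 2976 ± 432 CPM (SD, n = 5 each; log2 fold change -0.01, SE 0.11, edgeR adjusted p = 0.975). The lowest library of all was knockout 4.

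Of the 4 listed genes that could be tested, Rfc4, Eif4a2 and Kng2 were called higher in the knockout at an edgeR adjusted p below 0.05, 0 were called lower, and St6gal1 was not called. Over all tested genes 5.84% were called higher, 7.05% lower and 12.9% in either direction. Because the list was proposed from this contrast, the count is a description and nothing is read from it. The other 4 listed genes were too low to test. The median log2 fold change of all tested genes was 0.0002.

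Rfc4, whose product belongs to the complex that loads the sliding clamp onto DNA, had the clearest separation. It had 5.24, 5.603, 4.67, 6.08 and 4.34 CPM in the controls, taken in order from 1 to 5, against 10.4, 9.91, 8.25, 10.5 and 9.24 CPM in the knockouts. Every knockout library lay above every control library, which 4.55% of all tested genes showed, while 4.45% showed the opposite order and 0 of the 4 tested listed genes did. The means were 5.19 ± 0.701 and 9.66 ± 0.932 CPM (SD, n = 5 each), a 1.86-fold difference (log2 fold change 0.90, SE 0.12). These values rest on 74 to 90 reads per control library and 125 to 181 per knockout library. Leaving out any library kept the log2 fold change between 0.84 and 0.96 and kept the call.

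Eif4a2, the helicase gene whose last exon overlaps that of Rfc4, was abundant. It had 304.6, 297.1, 273.4, 276.6 and 285.3 CPM in the controls, taken in order from 1 to 5, against 379.2, 302.7, 339.3, 342.1 and 361.0 CPM in the knockouts. Knockout 2 lay just below control 1, and the other 4 knockouts lay above all controls. The means of 287 ± 13.3 and 345 ± 28.5 CPM (SD, n = 5 each) differed little (log2 fold change 0.26, SE 0.068). The call was lost without control 1, 2, 3 or 4 or knockout 5, while the log2 fold change stayed between 0.23 and 0.31.

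Kng2, a kininogen gene, was at the edge of detection. Its reads numbered 10, 5, 7, 14 and 13 in the controls, in the same order, against 14, 22, 20, 28 and 24 in the knockouts. As CPM these were 0.595, 0.318, 0.430, 0.946 and 0.762 in the controls and 0.804, 1.34, 1.32, 1.86 and 1.64 in the knockouts, so only knockout 1 fell inside the control range. The fold was 2.26 (log2 fold change 1.18, SE 0.31), on 49 reads in all controls and 108 in all knockouts. Kng2 passed the filter, which asks for about 0.625 CPM in 5 libraries, with 2 of 5 controls and 5 of 5 knockouts above that level. The knockouts alone were enough for Kng2 to pass. Such a filter favours genes that differ, so the Kng2 difference is given as a description only. The call was lost without control 1, 2 or 3 or knockout 2, 4 or 5, with log2 fold changes between 1.02 and 1.38. Gm6493, a processed pseudogene inside Kng2, had 4 reads in the controls and 14 in the knockouts, too few to test.

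**Figure D1:**
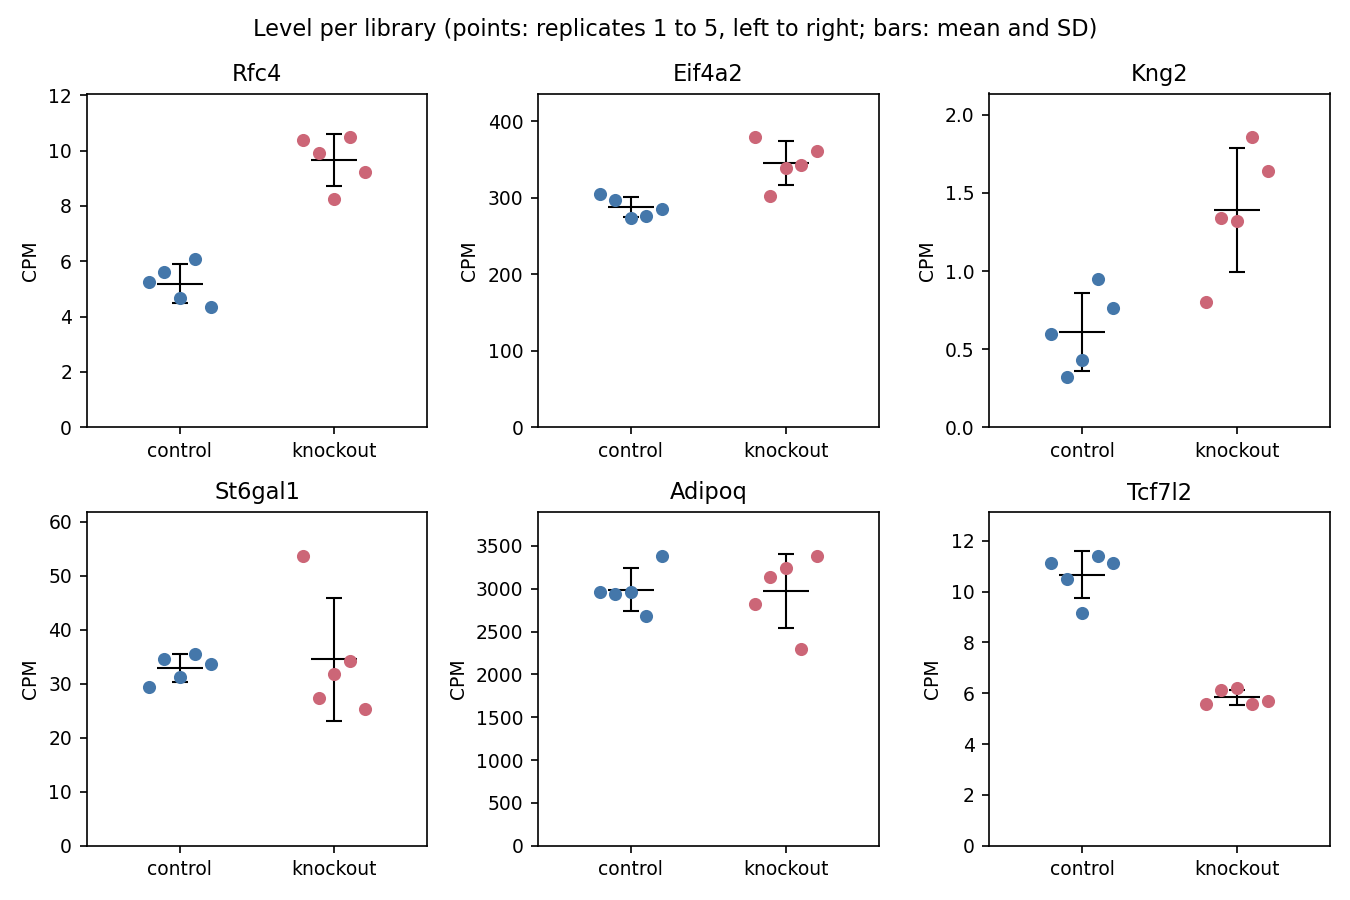
CPM per library (y axis, from 0) of 4 listed genes, Adipoq and Tcf7l2 in 5 control and 5 knockout libraries, with mean and SD as bars. Rfc4 knockouts sit between 8.25 and 10.5 CPM, all above the controls, while Adipoq overlaps.

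St6gal1, the sialyltransferase gene on the far side of Adipoq, had similar means in both groups and 1 library apart. It had 29.4, 34.6, 31.3, 35.6 and 33.7 CPM in the controls, taken in order from 1 to 5, against 53.7, 27.4, 31.9, 34.1 and 25.3 CPM in the knockouts. The means were 32.9 ± 2.53 and 34.5 ± 11.3 CPM (SD, n = 5 each; log2 fold change 0.07, SE 0.17), and without knockout 1 the log2 fold change was -0.14. St6gal1 is also highly expressed in B cells. The 12 B cell markers summed to 1829 CPM in knockout 1, 885 to 1094 CPM in the other knockouts and 695 to 1000 CPM in the controls, and the 10 T cell markers to 174, 42.1 to 68.2 and 42.3 to 45.9 CPM. On the group means Ighm carried most of the B cell sum, at 788 CPM in the controls and 1027 CPM in the knockouts (edgeR adjusted p = 0.0555). Il7r was the largest part of the T cell sum, at 25.4 and 28.5 CPM (edgeR adjusted p = 0.454). By edgeR 5 of the 12 B cell markers and 5 of the 10 T cell markers were called higher and 0 lower, and no marker of either list was at 0 in all libraries. Both counts were 0 without control 1, 2 or 4 and after adjusting for the intronic-type score, 3 and 1 without control 3, and 1 and 2 without knockout 5. Without control 5 they were 3 and 7, without knockout 1 they were 3 and 4, without knockout 2 they were 6 and 8, and with no filter on low counts 12 and 8, while DESeq2 called 3 and 6. The part of these cells in the St6gal1 value was not tested. In bulk tissue, more cells of a type and more RNA per cell cannot be told apart.

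The remaining plasma protein genes were close to the floor of 3 reads, which corresponds to between 0.169 and 0.214 CPM per library and covers counting error only. Ahsg, for fetuin-A, had 37, 3, 7, 0 and 13 reads in the controls, in the same order, against 2, 4, 9, 28 and 0 in the knockouts. Kng1, the other kininogen gene, had 19, 1, 4, 1 and 6 reads in the controls and 4, 0, 8, 18 and 2 in the knockouts. Both were highest in control 1 and knockout 4 and did not separate the groups, with 31 Kng1 reads in all controls and 32 in all knockouts.

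Fetub, for fetuin-B, had 5, 2, 1, 0 and 1 reads in the controls, in the same order, against 1, 2, 2, 3 and 1 in the knockouts. Hrg, for histidine-rich glycoprotein, had 4, 0, 0, 1 and 5 reads in the controls and 5 in knockout 4 with 0 in the other knockouts. Both genes were too low to test, so no difference can be read from these reads. Kng2 followed a different order from Kng1: control 1 had 10 Kng2 reads against 19 of Kng1, and knockout 2 had 22 against 0.

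Liver-type transcripts in general were unevenly spread over the libraries. Alb, for serum albumin, had 30.5 CPM in control 1 and 36.8 CPM in knockout 4, against 5.16 to 15.7 CPM in the other controls and 9.24 to 12.3 CPM in the other knockouts. These are the libraries in which Ahsg and Kng1 were highest. Serpina1b, a protease inhibitor gene of the liver, had 153.7 CPM in control 1 and 0.828 to 2.59 CPM in the other 9 libraries. The 16 hepatocyte markers outside the list summed to between 13.4 and 221 CPM in the controls and between 18.5 and 59.5 CPM in the knockouts. Of the 3 that could be tested, 0 were called by edgeR (1 at an unadjusted p below 0.05), and none of the 16 was at 0 in all libraries. Serpina1b was called lower with no filter and without control 5, while without control 1 its log2 fold change was 0.73.

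**Figure D2:**
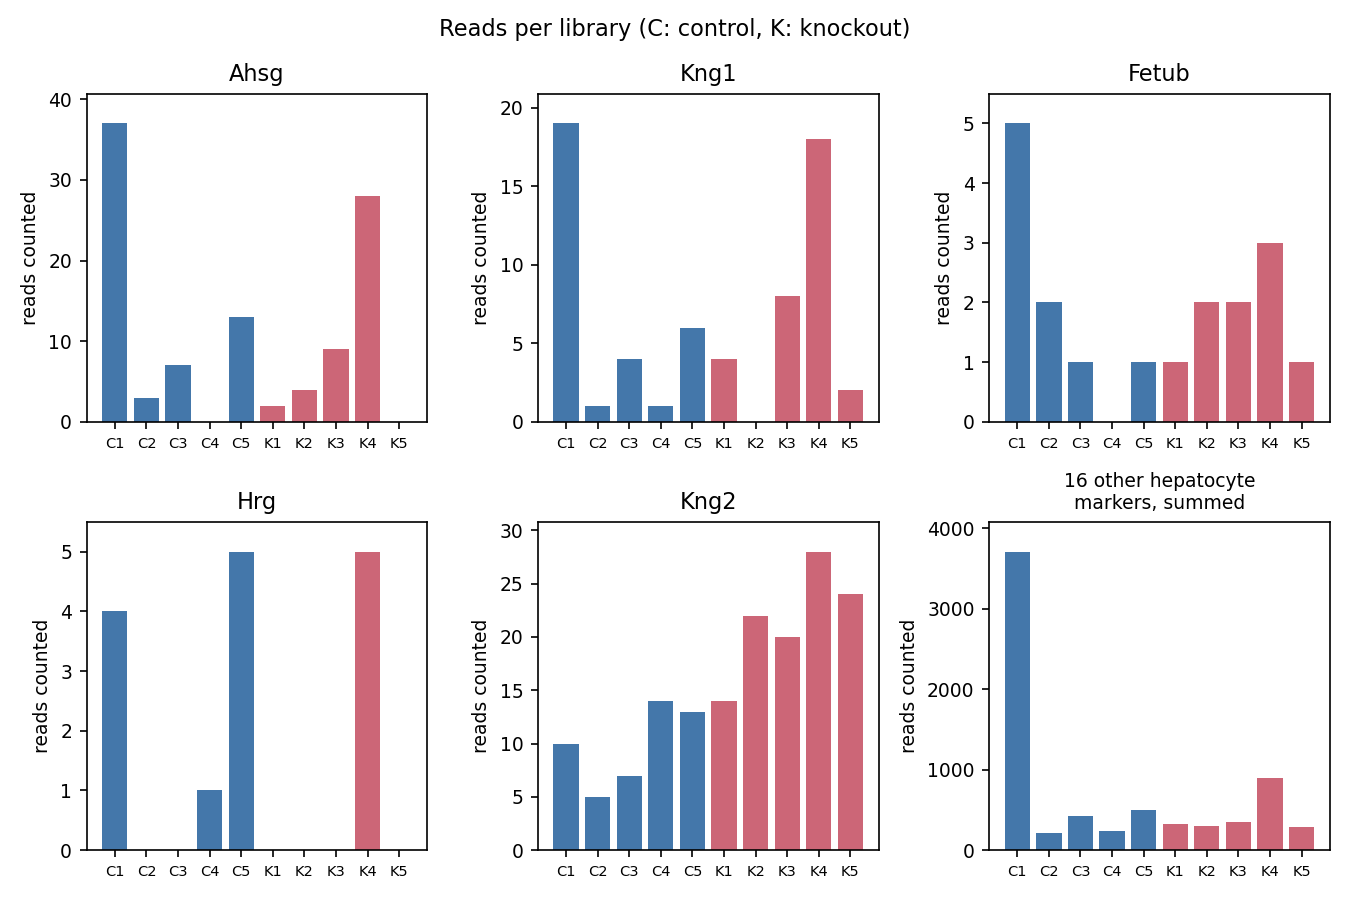
Reads counted per library (y axes, from 0) of 5 plasma protein genes next to Adipoq and of 16 other hepatocyte markers summed, in controls (C1 to C5) and knockouts (K1 to K5). Ahsg and Kng1 peak in control 1 and knockout 4 like the summed markers, and Kng2 has another order.

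Per length the genes spanned a wide range of levels, compared here as RPKM (CPM per kb of exonic sequence) in the controls. Adipoq stood at 2164 ± 182, Eif4a2 at 53.8 ± 2.49, St6gal1 at 6.70 ± 0.514 and Rfc4 at 3.38 ± 0.457 RPKM (SD, n = 5 each), with no overlap between neighbours in this order. Ahsg at 0.326 ± 0.399, Kng2 at 0.223 ± 0.0921, Kng1 at 0.114 ± 0.136, Hrg at 0.0601 ± 0.0689 and Fetub at 0.0556 ± 0.0585 RPKM followed, and the libraries of each overlapped those of the next. In the knockouts Rfc4 stood at 6.30 ± 0.607 and St6gal1 at 7.01 ± 2.30 RPKM, and their libraries overlapped. The difference between the group means, as a level, was 10.8 RPKM for Eif4a2, 2.92 for Rfc4 and 0.286 for Kng2, so the order by added level was the reverse of the order by fold.

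The genes around the list were read by position alone. GENCODE places 68 genes within 1 Mb of Adipoq, 48 of them are in the count table, and 9 outside the list and Adipoq could be tested. Of these 9, 1 was called higher, 0 were called lower and 8 were not called by edgeR, beside 5.84% called higher over all genes (2 had an unadjusted p below 0.05; median log2 fold change 0.01). The call was Dnajb11, for a chaperone of the endoplasmic reticulum, 267 kb from Adipoq. It went from 77.1 ± 5.15 to 88.7 ± 4.796 CPM (SD, n = 5 each; log2 fold change 0.20, SE 0.060, adjusted p = 0.0455), and it lost the call in 8 of the 10 fits that left out 1 library (adjusted p up to 0.120), all except those without control 5 and without knockout 1.

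Tbccd1, which starts next to Dnajb11 on the opposite strand, stood at 15.0 ± 1.06 and 15.1 ± 1.85 CPM (log2 fold change 0.01, adjusted p = 0.966 by edgeR), a direction that turned in 4 of the fits that left out 1 library. Masp1, a protease gene of the complement lectin pathway 291 kb beyond Adipoq, was 1.31 ± 0.268 and 0.830 ± 0.269 CPM (log2 fold change -0.65, edgeR adjusted p = 0.107). Gm24616, a small nucleolar RNA inside Eif4a2, was 0.800 ± 0.191 and 0.954 ± 0.217 CPM (log2 fold change 0.25, edgeR adjusted p = 0.525). Further out, Igf2bp2, Tra2b, Etv5, Rtp4 and Bcl6 had log2 fold changes between -0.08 and 0.15 and were not called. Between Adipoq and St6gal1, the antisense locus B630019A10Rik had 29 reads in all controls and 32 in all knockouts. With the window at 2 Mb, 2 of 20 genes were called higher and 2 lower.

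**Figure D3:**
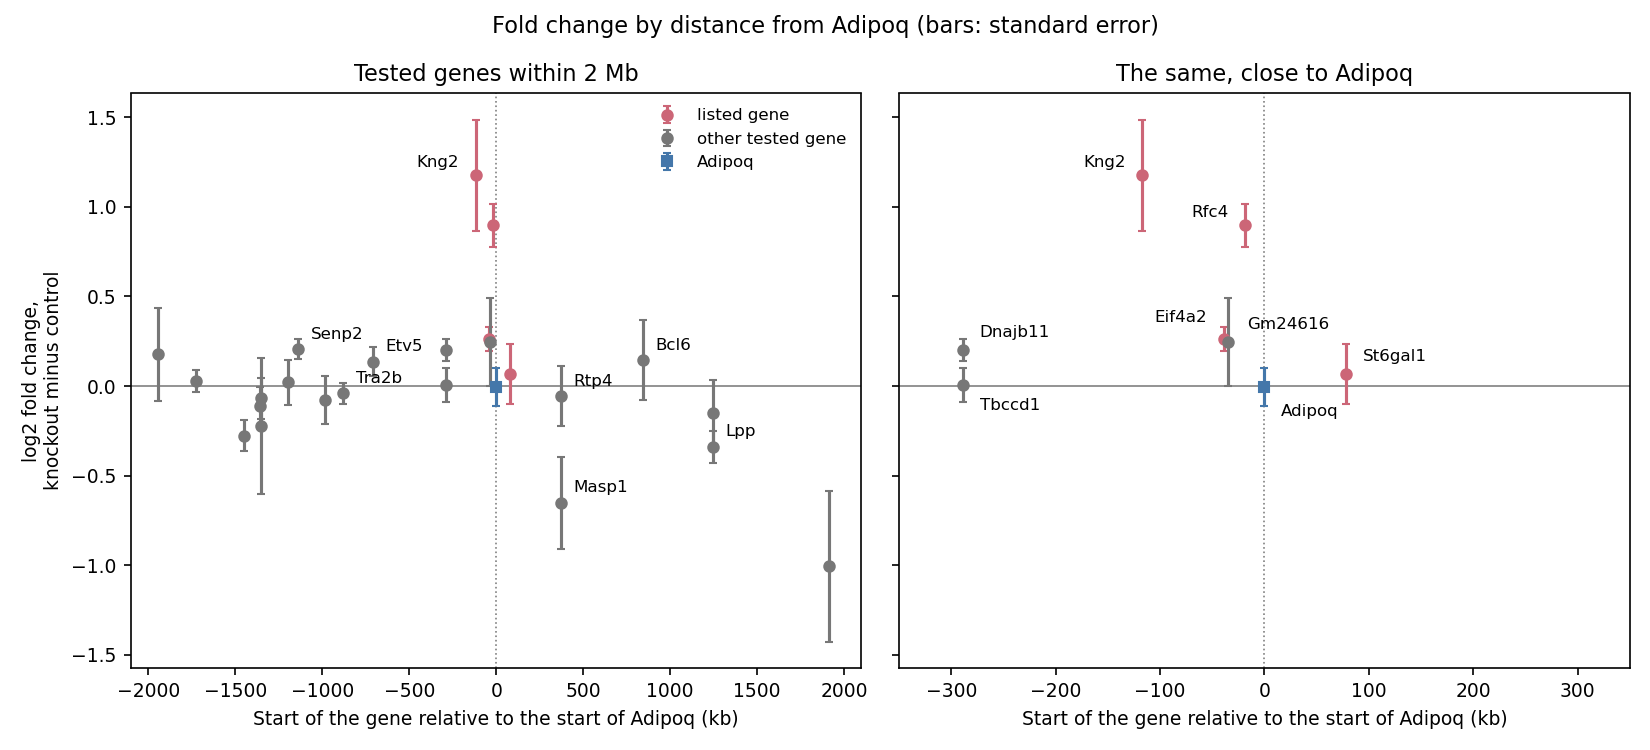
Log2 fold change with standard error (y axis) of the tested genes by the distance of their start from that of Adipoq in kb (x axis), over 2 Mb on each side and close up. Kng2, at 1.18, Rfc4, at 0.90, and Eif4a2, at 0.26, lie before Adipoq, at -0.01, and St6gal1, at 0.07, lies beyond it. The listed genes were selected on this contrast. The other tested genes, near Adipoq and further out, lie on both sides of 0.

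Pathway partners of the listed genes were taken from lists of known members. In the list around replication factor C and its clamp, 2 of 15 genes besides Rfc4 were called higher by edgeR, 0 lower and 13 were not called (5 at an unadjusted p below 0.05; median log2 fold change 0.13). Rfc3, another clamp loader subunit, rose from 8.11 ± 0.735 to 10.9 ± 0.865 CPM (SD, n = 5 each; log2 fold change 0.42, SE 0.097, adjusted p = 0.0199), a call lost without control 1 (adjusted p = 0.0558). Pcna, the sliding clamp itself, rose from 62.8 ± 3.50 to 72.1 ± 3.36 CPM (0.20, adjusted p = 0.0393). It lost its call in 6 of the 10 fits that left out 1 library (adjusted p up to 0.103). Those were the fits without control 1, 2 or 4 or knockout 2, 4 or 5. Pcna also lost the call with no filter on low counts. Rfc2 at 0.25 (adjusted p = 0.082), Rfc5 at 0.20 (adjusted p = 0.143) and Rfc1 at 0.04 (adjusted p = 0.687) completed the loader. The difference of Rfc4, at 0.90, was the largest of the 5 loader subunits. Rfc4 was selected on this contrast, so that rank is a description only.

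Proliferation markers, summed, were higher in the knockouts, with a narrow gap between the groups. The 14 markers summed to between 219 and 285 CPM in the controls and between 293 and 325 CPM in the knockouts, with no overlap. For Rfc4 the highest control had 6.08 CPM and the lowest knockout 8.25 CPM. Rfc4 was selected on this contrast, so its gap cannot be compared with that of the sum. Mki67 (71.6 CPM in the controls) and Top2a (48.5 CPM) carried much of the sum. How often such a sum fails to overlap was not computed. By edgeR 0 of the 14 were called (9 at an unadjusted p below 0.05; median log2 fold change 0.25; DESeq2 called 2 higher), and none was at 0 in all libraries. Their part in the Rfc4 value was not tested.

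Around eIF4F, the complex that prepares mRNA for the ribosome, 1 of 14 tested genes besides Eif4a2 was called higher by edgeR, 0 lower and 13 were not called (median log2 fold change 0.09). Eif4a1, the paralog of Eif4a2, rose from 463.4 ± 23.0 to 535.9 ± 20.6 CPM (SD, n = 5 each; log2 fold change 0.21, SE 0.059, adjusted p = 0.0383). The call was lost in 7 of the 10 fits that left out 1 library (adjusted p up to 0.104), all but those without control 3, control 5 or knockout 1. Eif4a1 also lost the call with no filter on low counts. Eif4e2, a cap-binding protein gene, at 0.22 (adjusted p = 0.056), and Pdcd4, which restrains the helicase, at 0.18 (adjusted p = 0.133), were not called. The helicase genes Eif4a1 and Eif4a2 had log2 fold changes of 0.21 and 0.26, and what lies behind either was not tested.

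In the kinin system, which releases bradykinin from kininogens, 0 of 10 tested genes besides Kng2 were called by edgeR (1 at an unadjusted p below 0.05, and 1 by DESeq2; median log2 fold change -0.12). That gene was Ace, whose enzyme breaks bradykinin down, at 112 ± 16.8 and 90.0 ± 9.38 CPM (log2 fold change -0.32, adjusted p = 0.0564). Ace was called lower with no filter on low counts and without control 3 or knockout 3. The bradykinin receptor gene Bdkrb2 stood at 1.26 and 1.09 CPM (adjusted p = 0.615), and Klkb1, for the kallikrein that cuts kininogen, was too low to test at 0.185 and 0.202 CPM. Among 4 tested cystatin relatives, Cstb, an inhibitor of cathepsins inside cells, stood at 122 ± 11.9 CPM in the controls and rose to 183 ± 18.6 CPM (log2 fold change 0.59, SE 0.086, edgeR adjusted p = 0.00297), and the other 3 were not called.

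Among 13 tested sialyltransferases besides St6gal1, 0 were called higher, 1 lower and 12 were not called by edgeR (5 at an unadjusted p below 0.05; median log2 fold change -0.16). St6galnac5, which acts on gangliosides, fell from 11.4 ± 1.78 to 7.01 ± 0.796 CPM (SD, n = 5 each; log2 fold change -0.70, SE 0.13, adjusted p = 0.0085). Neither Cstb nor St6galnac5 lost its call when any single library was left out.

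**Figure D4:**
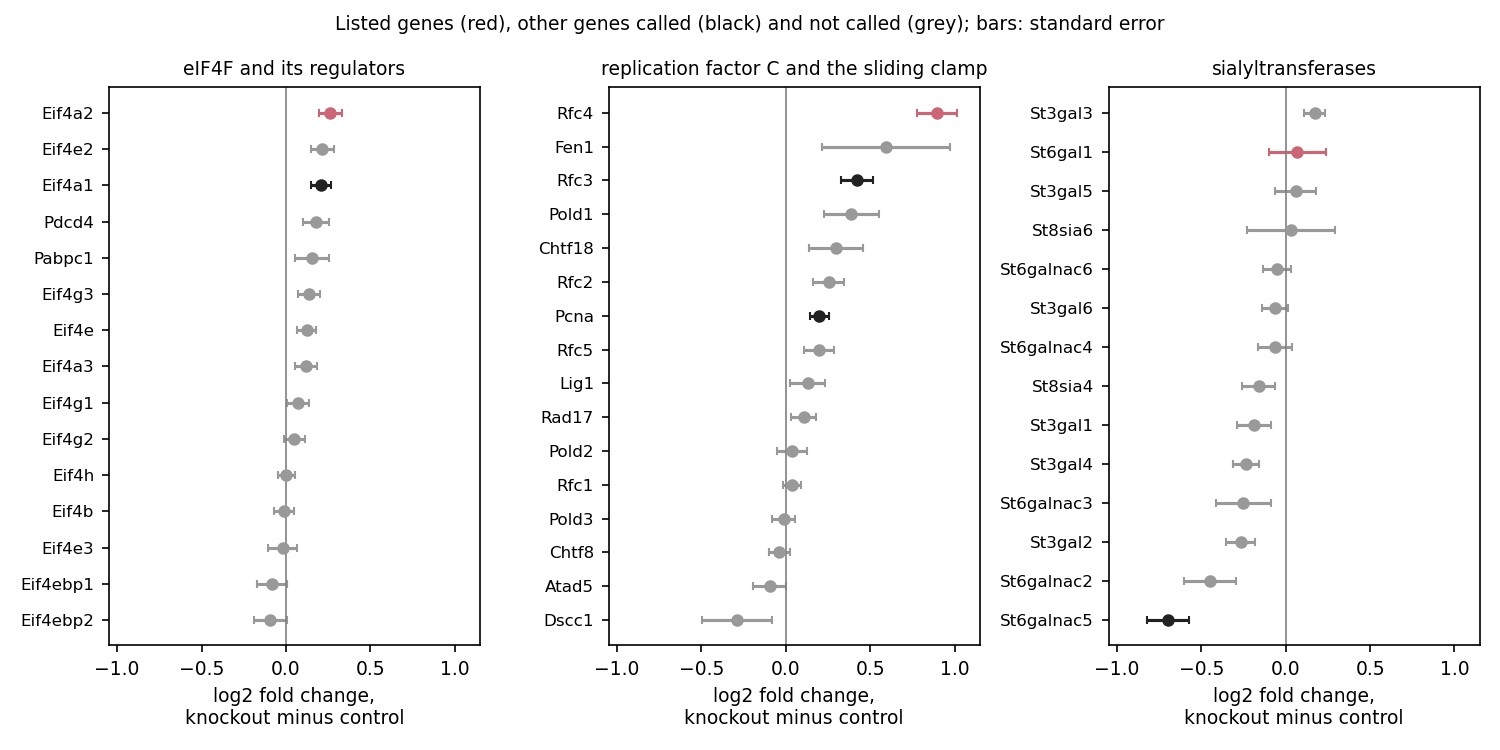
Log2 fold change with standard error (x axis) of the tested members of 3 pathway lists (y axis), with Eif4a2, Rfc4 and St6gal1 in red. Rfc4 is at 0.90 and Eif4a2 at 0.26, and both were selected on this contrast, so their ranks are a description only. Eif4e2, at 0.22, and Eif4a1, at 0.21, lie close to Eif4a2.

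The genes that followed each listed gene most closely over the 10 libraries were found by Pearson correlation of log2 CPM, given as a description. For Rfc4 they were the clustered histone genes Hist1h4f (r = 0.976), Hist1h2bm (r = 0.970) and Hist1h1e (r = 0.969). In the same order, their log2 fold changes were 0.77, 0.67 and 0.53 (edgeR adjusted p = 0.00121, 0.0084 and 0.00174), all called higher. In deviations from the group means, their r with Rfc4 was 0.781, 0.850 and 0.720. For Eif4a2 the closest were the transporter gene Slco5a1 (r = 0.947), Apol7c (r = 0.943) and the T cell receptor gene Trbc2 (r = 0.911). For Kng2 they were Ube2n (r = 0.945), Tdrkh (r = 0.943) and Nras (r = 0.941), and for St6gal1 Sp4 (r = 0.956), Gmip (r = 0.952) and Tmem229b (r = 0.952). The St6gal1 values fell to between 0.822 and 0.843 without knockout 1. The libraries share their group, depth and preparation, and closeness over them partly reflects the groups.

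The genes called higher were also compared with each other and with St6gal1. Over the 10 libraries Rfc4 and Eif4a2 had r = 0.804, Rfc4 and Kng2 r = 0.747, and Kng2 and Eif4a2 r = 0.544. In deviations from the group means these were lower, at 0.108, 0.000442 and -0.322. For St6gal1 the order was the reverse with Eif4a2 (r = 0.281 over the libraries and 0.458 in deviations) and with Rfc4 (r = 0.135 and 0.331), while with Kng2 r was -0.238 and -0.427. Adipoq and Dnajb11 were compared in the same way, and the strongest pairs in deviations are given here. Rfc4 and Adipoq had r = -0.273 over the libraries and -0.707 in deviations, and Rfc4 and Dnajb11 had 0.630 and -0.660. Between Adipoq and Dnajb11 r was 0.382 and 0.703.

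The intronic-type score, the mean log2 CPM of 786 tested loci that GENCODE types as TEC or sense_intronic, lay between 0.382 and 1.27 in the controls and between 0.0562 and 0.464 in the knockouts (exact permutation p = 0.0238, n = 5 per group), with control 5 inside the knockout range. With the score as a covariate, chosen after seeing the data, 11 genes were called higher and 38 lower in the whole table. Rfc4 was among the 11, and none of the 5 pathway genes called without the covariate was called with it. Eif4a2, at 0.31, Kng2, at 0.89, and Dnajb11, at 0.04 (edgeR adjusted p = 0.888), were not.

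DNA copy number was not measured. Extra copies of a gene and more transcript from the copies already present therefore cannot be told apart for Rfc4, Eif4a2 and Kng2.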

How the data were processed

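RNA-seq libraries (ribosomal RNA depletion, a strand-marking kit, per the labels' protocols) were analysed from the counts of reads per gene deposited by the authors, whole numbers with no normalization. Per the submitters' processing notes, the GRCm38 build was used with featureCounts 1.5.1, STAR 2.5.2b and DESeq2 1.16.0. Annotation release, strand setting and treatment of reads with several matches: not given in the sources used here. Of the identifiers, 52489 had a symbol in GENCODE M21 and 147 had none.

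Genes were filtered with filterByExpr by group and scaled with TMM factors, and 5 controls were compared with 5 knockouts with edgeR 4.0.16 (R 4.3.3; quasi-likelihood F test, two-sided), with no covariate and Benjamini-Hochberg adjustment over 15927 genes. SE is the log2 fold change divided by the root of F. The script was tested on simulated data. The 20 pairs of libraries within groups differed beyond sampling noise (chi-square per degree of freedom 6.57 to 26.2). The listed genes and the gene lists were chosen with earlier results of these data known.

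Named genes were the listed ones, Adipoq, Tcf7l2, other tested genes with a gene symbol from Tbccd1 to Masp1, called genes within 1 Mb of Adipoq, up to 4 of smallest p per pathway list, up to 2 of highest CPM per marker list and the 3 closest by correlation. Genes outside this rule were Gm6493, Gm24616, B630019A10Rik, Igf2bp2, Tra2b, Etv5, Rtp4, Bcl6, Rfc1, Rfc5, Bdkrb2, Klkb1, Cfd, Retn, Slc2a4, Plin4 and Lep, chosen after their values were seen. Alternatives were DESeq2 1.42.0, RLE size factors, no filter, each library left out, other windows and, added later, the intronic-type score.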

Additional observations from a re-analysis of the deposited data

Results flagged for a closer look

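Of 54 groups of 5 libraries examined, 7 had a library far from the others, its gap to the nearest taking up more than 0.71 of the group's range. About 1 in 20 groups would pass by chance if values were normal and groups independent. Low counts and skewed sums are not normal, and the items share libraries, so 7 of 54 cannot be compared with that rate. Hrg had 0.332 CPM in knockout 4 and 0 in the other knockouts. Kng1 had 1.13 CPM in control 1 and 0.0637 to 0.352 CPM in the other controls. The summed hepatocyte markers had 221 CPM in control 1, against 13.4 to 29.6 CPM, and 59.5 CPM in knockout 4, against 18.5 to 23.2 CPM. The summed B cell markers, of which Ighm carried most on the group means, had 1830 CPM in knockout 1 and 885 to 1090 CPM in the other knockouts. The summed T cell markers had 174 CPM in knockout 1, against 42.1 to 68.2 CPM. The summed skeletal muscle markers had 544 CPM in control 5, against 25 to 76.2 CPM in the other controls. Among the knockouts this sum was higher still in knockout 1 (740.8 CPM) and knockout 3 (582.1 CPM), 122.1 CPM in knockout 2 and 46.66 and 41.82 CPM in knockout 4 and 5. By edgeR 0 of the 9 tested muscle markers were called (0 at an unadjusted p below 0.05, 0 by DESeq2), and 6 were called higher without control 5.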

How the results depend on the processing

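No paired analysis was possible because the controls and knockouts share no replicate number in the titles. The number of genes called, 2053 in all, was 2668 with DESeq2, 2046 with RLE size factors and 2339 with no filter. Leaving out 1 library gave 537 to 3094 calls (560, 537, 903 and 3094 when control 1, 2, 4 or 5 was dropped, 998 and 885 when knockout 2 or 5 was), of which 227 to 1386 higher and 310 to 1708 lower. Of the listed genes 3 were called with DESeq2, RLE size factors and no filter, and 1 to 3 with 1 library left out (1 without control 1, 2 or 3 or knockout 5). Within 1 Mb of Adipoq the genes called higher numbered 0 with no filter and 0 to 1 with 1 library left out, and a window of 2 Mb gave 2 higher and 2 lower. The 5 pathway genes called became 9 with DESeq2 and 2 to 8 with 1 library left out (2 without control 1, 3 without control 2 or knockout 2 or 5, 8 without control 5 or knockout 1). With no filter the count was again 5, but Pcna and Eif4a1 had lost the call and Ace had gained it. The 23 marker genes called became 36 with no filter and 7 to 34 with 1 library left out (7, 8, 14 and 9 when control 1, 2, 3 or 4 was dropped, 11 when knockout 5 was). When the intronic-type score entered as covariate, chosen after seeing the data, 49 genes were called (11 higher, 38 lower), with 1 listed gene, 0 genes called higher within 1 Mb, 0 pathway genes and 1 marker gene. The cause of these changes was not tested.

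Directions that turned all belonged to genes that were not called in the main fit. Of these, Serpina1b was called lower with no filter and without control 5, and Acta1 was called higher without control 5. The covariate turned Acta1 to -0.33, Alb to -0.10, Bcl6 to -0.18, Cst3 to -0.015, Cst6 to -0.27, Fabp4 to -0.17, Serpina1b to 0.044 and Tbccd1 to -0.16, and no filter turned Adipoq to 0.022. With 1 library left out the log2 fold change ran from -0.16 to 2.07 for Acta1, -0.053 to 0.0755 for Adipoq, -0.46 to 0.58 for Alb, -0.0068 to 0.32 for Bcl6, -0.052 to 0.13 for Gmip, -0.17 to 0.018 for Igf2bp2 and -0.15 to 0.10 for Rtp4. It ran from -4.62 to 0.73 for Serpina1b, -0.12 to 0.13 for Sp4, -0.14 to 0.16 for St6gal1, -0.040 to 0.072 for Tbccd1, -0.082 to 0.13 for Tmem229b and -0.0675 to 0.0001 for Tra2b. Depth limits Ahsg, Fetub, Hrg, Kng1 and Kng2, which rest on few reads.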
